A study of Arabidopsis thaliana with 14 samples.

Results

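PPDK encodes pyruvate orthophosphate dikinase, and its transcript was followed in imbibed Arabidopsis thaliana seed through the 1 probe set that the platform annotation pairs with PPDK alone (245528_at, locus AT4G15530, on chromosome 4), 1 of 13350 genes that have a probe set to themselves and 1 of 22746 probe sets tested. The arrays compared 4 groups of seed, each imbibed for 24 h on agar of 0.8% at 20 C in white light of 100 uE. The gibberellin-deficient mutant ga1-3 was imbibed with 1 uM KAR1 (3 arrays) or on water alone (3 arrays), and the Landsberg erecta (Ler) wild type with 1 uM KAR1 (4 arrays) or on water alone (4 arrays). KAR1 is a karrikin, a butenolide found in smoke. All seed was primary dormant and had been stored frozen, and each array of a group came from another seed batch, lettered A to C in ga1-3 and A to D in wild type. The labels give no ecotype for ga1-3. The design text states that wild type seed can germinate and is promoted by KAR1, while ga1-3 seed cannot germinate on either medium, so a genotype difference is also one between seed that can and cannot germinate.

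Pyruvate orthophosphate dikinase converts pyruvate, ATP and phosphate to phosphoenolpyruvate, AMP and pyrophosphate, in a reversible reaction. It is best known from C4 photosynthesis, where it regenerates the carbon dioxide acceptor, and in Arabidopsis, a C3 plant, it has been tied to nitrogen remobilisation in ageing leaves and to gluconeogenesis in germinating seed. In the seedling, phosphoenolpyruvate carboxykinase feeds carbon from stored oil into sugar by way of the glyoxylate cycle, and PPDK opens a second entry point for pyruvate, which arises from the breakdown of storage protein. Plant PPDK genes can give a plastid and a cytosolic form from different transcription starts, and the enzyme is switched by a regulatory protein that phosphorylates it. RefSeq lists 7 transcripts for the locus, and the probe set gives a single value for whatever transcripts it detects.

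The PPDK transcript was higher in ga1-3 seed than in wild type seed on both media, by about 1.4-fold to 1.5-fold, and no difference between KAR1 and water was called in either genotype. On KAR1, the deposited intensity of PPDK in ga1-3 was 2918.3 in seed batch A, 2352.3 in batch B and 2600.7 in batch C, against 1333.8, 1843.0, 1846.6 and 1845.0 in wild type batches A to D. On water, PPDK read 2194.3, 2214.0 and 2552.2 in ga1-3 batches A to C, against 1219.3, 1976.4, 1774.6 and 1596.4 in wild type batches A to D. On each medium the lowest ga1-3 array lay above the highest wild type array, and wild type batch A was the lowest array of its group on both. The share of all probe sets without overlap between the genotypes is not given here, so the separation is a description. Over the arrays, all intensities ran between 3.5 and 39328.1 with array medians between 10.5 and 12.7.

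**Figure D1:**
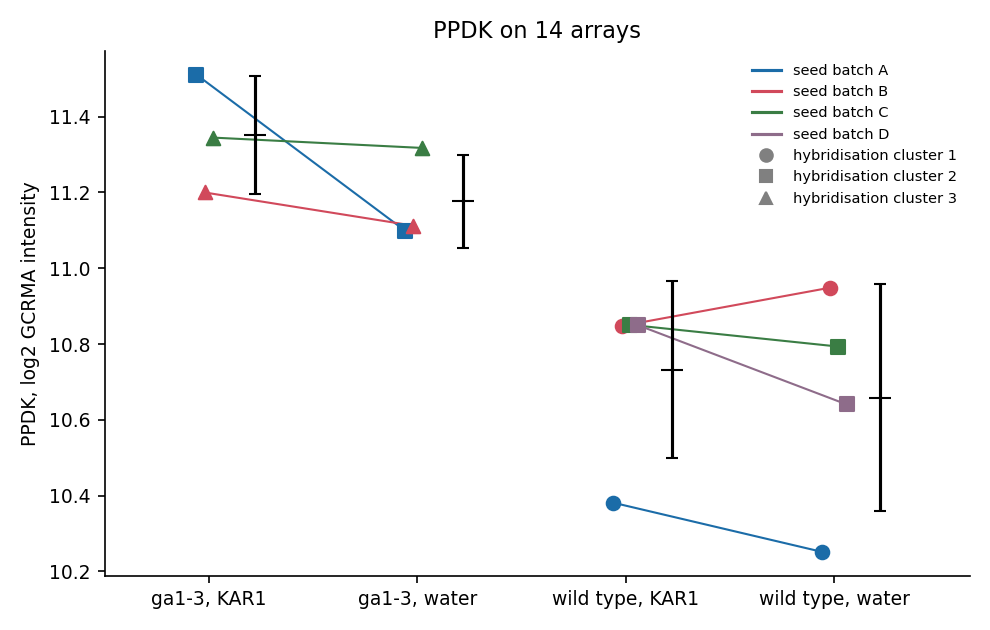
Log2 GCRMA intensity of PPDK (vertical axis) on each of the 14 arrays, by group, with colour for the seed batch letter and marker shape for the hybridisation cluster. Lines join the arrays of a seed batch, and black bars are the mean and SD of each group. The 6 ga1-3 arrays lie above the 8 wild type arrays, and wild type batch A is the lowest point on each medium.

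On the log2 scale the mean level of PPDK was 11.35 ± 0.16 in ga1-3 on KAR1 (SD, n = 3), 11.18 ± 0.12 in ga1-3 on water (n = 3), 10.73 ± 0.23 in wild type on KAR1 (n = 4) and 10.66 ± 0.30 in wild type on water (n = 4). Within each genotype the KAR1 and water values overlapped, so these neighbours in the order did not differ beyond their spread. The step between ga1-3 on water and wild type on KAR1 showed no overlap, but these groups differ in both genotype and medium and were not compared.

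On water, PPDK was 1.43-fold higher in ga1-3 than in wild type, with a 95% interval of 1.11-fold to 1.84-fold (log2 difference 0.52 ± 0.17, standard error, limma adjusted p = 0.0294). On KAR1 it was 1.54-fold higher, with an interval of 1.19-fold to 1.98-fold (log2 difference 0.62 ± 0.17, adjusted p = 0.0120). Such calls, an adjusted p under 0.05 over all probe sets, were common. On water 36.5% of the 22746 probe sets were called, made up of 19.7% higher in ga1-3 and 16.8% lower. On KAR1 37.6% were called, 19.3% higher and 18.3% lower. Among the 10706 probe sets with a mean log2 level of 4 or more, 26.0% had a larger log2 difference than PPDK on water and 20.9% on KAR1. The median size of the log2 difference among the called probe sets of this range was 0.77 on water and 0.78 on KAR1, so the PPDK difference was smaller than that of the typical call.

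The call on water was less firm than the call on KAR1. It was lost when any of 4 single arrays was left out, namely wild type on water batch A (log2 0.38, adjusted p = 0.0625) or D (0.51, 0.0556), or ga1-3 on water batch B (0.55, 0.0634) or C (0.45, 0.115). On KAR1 the call was kept without each of the 14 arrays in turn, with adjusted p up to 0.0443, and was lost with the KAR1 and water arrays of ga1-3 batch A both removed (log2 0.54, adjusted p = 0.0521). With the lowest batch, wild type A, removed on both media, PPDK was still called higher in ga1-3, with log2 differences of 0.38 on water (adjusted p = 0.0146) and 0.50 on KAR1 (adjusted p = 0.00325).

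The 2 arrays of a seed batch come from the same harvest, so genotypes were also compared over the 7 seed batches, each with the mean of its 2 arrays. The ga1-3 batches had a mean log2 level of 11.26 ± 0.09 (SD, n = 3) and the wild type batches 10.70 ± 0.26 (SD, n = 4). All 3 ga1-3 batches lay above all 4 wild type batches, with a log2 difference of 0.57, or 1.48-fold (exact two-sided permutation test, p = 0.0286, the smallest p that its 35 arrangements allow). This p is not adjusted for the number of probe sets, and the share of probe sets that reach it is not given here. The wild type batches spread over 0.58 on the log2 scale and the ga1-3 batches over 0.17. The wild type range was as large as the difference between the genotype means. Most of that range came from batch A, at 10.3 against 10.7 to 10.9 in batches B to D.

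Wild type batch A stood apart in other transcripts as well. On its arrays the 69 plastid-encoded probe sets had a median deviation of 2.14 on water and 2.01 on KAR1 from their mean over all arrays (log2), against -0.42 to 0.50 on the other wild type arrays and -1.13 to -0.24 on the ga1-3 arrays. Whether this has a part in the low PPDK value of that batch was not tested. In whole seed, fewer cells of a type and less RNA per cell cannot be told apart.

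The arrays also fell into 3 clusters by 21 probe sets for transcripts added by the laboratory, here called hybridisation clusters. No label names such a batch, so the step that the clusters reflect is unknown, and they are partly confounded with genotype. Wild type A and B formed the first, ga1-3 A with wild type C and D the second, and ga1-3 B and C the third, each with both media. With the cluster as a block the log2 difference of PPDK was 0.47 on water (adjusted p = 0.189) and 0.57 on KAR1 (adjusted p = 0.106), so both calls were lost. The clusters other than the second hold a single genotype each, so such a fit rests its genotype difference on ga1-3 batch A. Within the second cluster, which holds ga1-3 batch A alone against wild type C and D, the spread comes from wild type arrays only, and the difference was 0.38 on water (adjusted p = 0.105) and 0.66 on KAR1 (adjusted p = 0.0439). The difference was positive in each of these, and how much of it belongs to the cluster was not tested further.

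**Figure D2:**
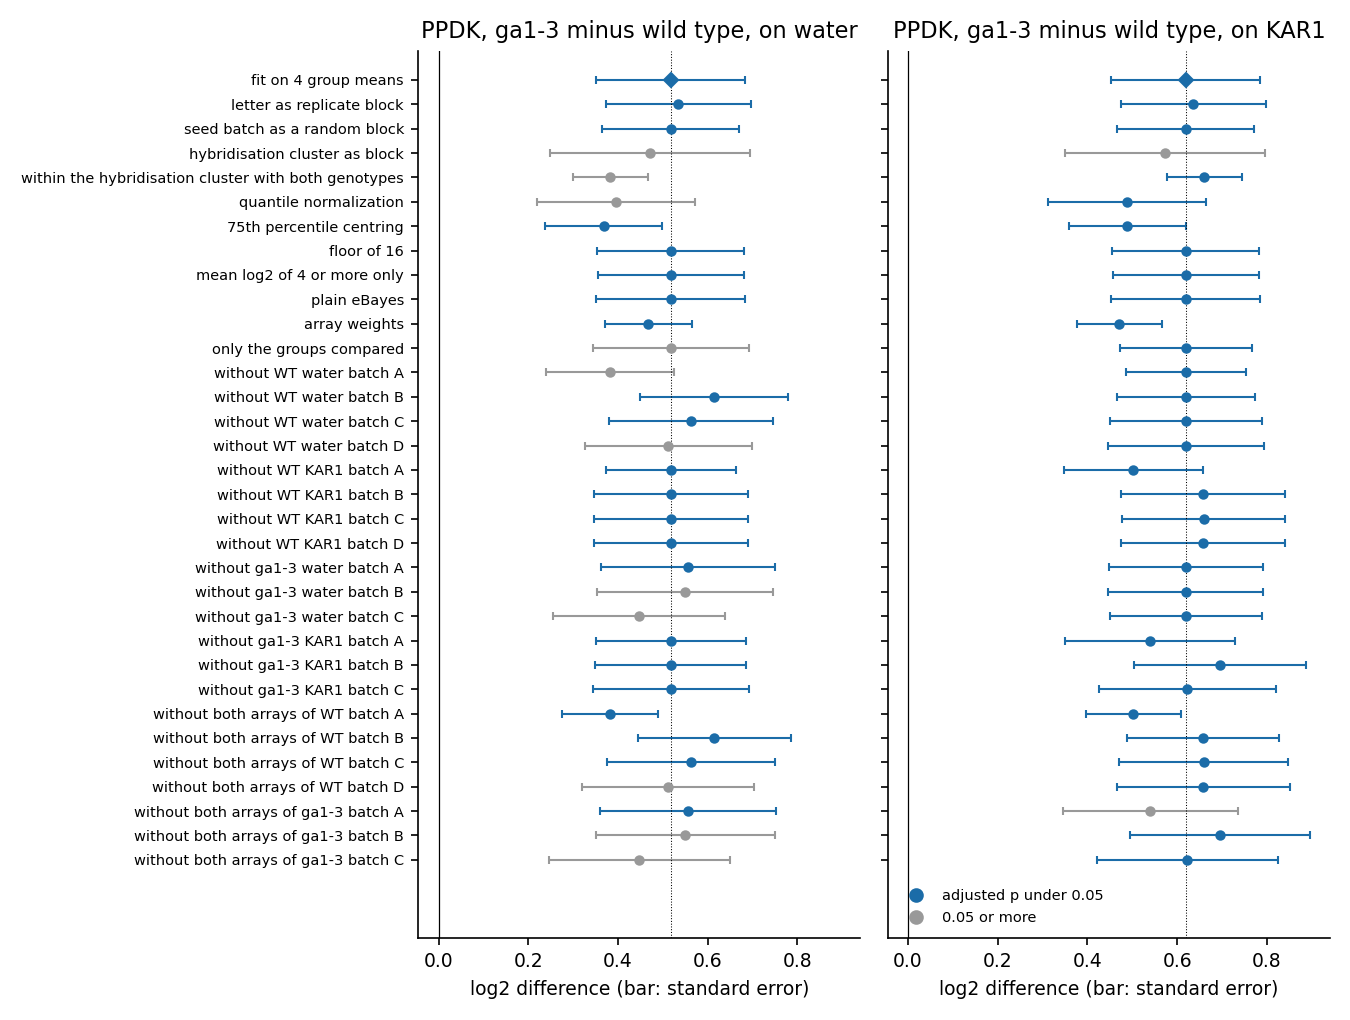
Log2 difference of PPDK, ga1-3 minus wild type (horizontal axis, bars are standard errors), on water (left) and on KAR1 (right) under the fit on the 4 group means and its 32 alternatives (rows). Blue points have an adjusted p under 0.05 and grey points do not. All values lie above 0, between 0.37 and 0.61 on water and between 0.47 and 0.70 on KAR1.

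The scaling of the arrays also bears on the size of the difference. With each array centred on its 75th percentile, the median difference over all probe sets was -0.15 on water and -0.13 on KAR1. PPDK then read 0.37 (adjusted p = 0.0380) and 0.49 (adjusted p = 0.0125). Centring shifts every probe set of an array alike. The distance of PPDK above that median, 0.52 and 0.62, is therefore the same as before centring and tests nothing. Under this scaling only 26.9% of the calls on water were higher in ga1-3, against 53.9% with the deposited scaling, and on KAR1 30.2% against 51.4%. With quantile normalisation the log2 difference was 0.40 on water (adjusted p = 0.101) and 0.49 on KAR1 (adjusted p = 0.0484).

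No KAR1 effect on PPDK was called. On the log2 scale the mean KAR1 effect was 0.18 ± 0.21 in ga1-3 (SD over seed batches, n = 3) and 0.07 ± 0.13 in wild type (n = 4). These SDs describe the spread of single batches and not the error of the mean. In ga1-3 the log2 difference, KAR1 minus water, was 0.41 in batch A, 0.09 in batch B and 0.03 in batch C. In wild type it was 0.13 in batch A, -0.10 in batch B, 0.06 in batch C and 0.21 in batch D. KAR1 seed read higher than water seed in 6 of the 7 batches, with ga1-3 batch A the farthest from 0 and wild type batch B the exception.

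The fitted KAR1 effect on PPDK in ga1-3 was 0.18 ± 0.18 on the log2 scale, a ratio of 1.13 with a 95% interval of 0.863 to 1.48 (adjusted p = 1). In wild type it was 0.07 ± 0.15, a ratio of 1.05 with an interval of 0.834 to 1.33 (adjusted p = 1). With the seed batch as a block the intervals of the log2 difference narrowed to -0.03 to 0.38 in ga1-3 and -0.11 to 0.25 in wild type. Over both genotypes the mean effect was 0.12 ± 0.12 (adjusted p = 1), and the difference between the genotypes' effects was 0.10 ± 0.23 with an interval of -0.41 to 0.61 (adjusted p = 1). Taking each batch as its own pair, the mean change was 0.12 (exact two-sided sign-change permutation test over the 7 batches, p = 0.0938, smallest possible 0.0156). With the seed batch as a block the mean effect had a smaller standard error, 0.06, and an adjusted p of 0.533.

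Few probe sets of the array were called for KAR1. With limma 0.0% of the 22746 probe sets were called for KAR1 in ga1-3, where 456 had an unadjusted p under 0.05, and 0.0% in wild type, where 462 did. The mean effect gave calls for 0.022%, that is 5 probe sets, or 86 (0.378%) with the seed batch as a block, and the interaction for 0.0%, with 116 at an unadjusted p under 0.05. With the block there were 3 calls in ga1-3 (0.0132%) and 0 in wild type (0.0%), where 1666 probe sets had an unadjusted p under 0.05.

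Genes around PPDK in reserve mobilisation were taken from 6 lists with 100 members, of which the annotation names a probe set for 20, PPDK included. Some of the members act in glycolysis. Neither of the 2 regulatory proteins on the list of PPDK and its regulators was measured under a name. On water 7 of the 20 were called higher in ga1-3, 4 were called lower and 9 were not called, with a median log2 difference of 0.23 against 0.00 over all probe sets. On KAR1 6 were higher, 4 lower and 10 not called, with a median of 0.17. Among the 16 members with a mean log2 level of 4 or more, 7 were higher and 1 lower on water, where 25.0% of all probe sets of that range were higher and 12% lower. On KAR1 6 were higher and 1 lower, where 25.1% and 13.7% of such probe sets were. These lists were assembled with results of the same arrays known, so the counts describe them and test nothing.

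On the list of phosphoenolpyruvate and pyruvate enzymes, where PPDK acts, 6 of 24 members were measured. The locus AT5G08570 was 2.27-fold higher in ga1-3 on KAR1 (log2 1.18, adjusted p = 0.00145) and higher on water too (log2 1.00, adjusted p = 0.00454). Its levels were 10.36 to 11.18 in ga1-3 on KAR1 and 9.52 to 9.87 in wild type on KAR1, without overlap. AT5G63680 was 1.65-fold higher on KAR1 (log2 0.72, adjusted p = 0.00315) and 1.67-fold higher on water (log2 0.74, adjusted p = 0.00286). AT5G56350 averaged 6.02 ± 0.68 in ga1-3 on water (SD, n = 3) and 5.07 ± 0.61 in wild type on water (SD, n = 4), with overlapping arrays and adjusted p = 0.141. AT4G26390 and AT3G04050 were called lower, with log2 differences of -0.07 and -0.38 on each medium, but they lay under an intensity of 16 on every array, near the lowest values of the file, and AT3G25960 was not called (adjusted p = 0.702 on water). The gene table gives these 6 loci no name beyond the locus. The list enters all 6 as pyruvate kinases, enzymes of glycolysis that form pyruvate from phosphoenolpyruvate.

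The sugar phosphate list holds enzymes of the sugar phosphate steps of glycolysis and gluconeogenesis, and 3 of its 15 members were measured. Their levels do not tell these 2 directions apart. TPI, triose phosphate isomerase, which interconverts the triose phosphates, was 1.86-fold higher in ga1-3 on KAR1 (log2 0.89, adjusted p = 0.00181) and 1.83-fold higher on water (log2 0.87, adjusted p = 0.00224). GAPC2, a cytosolic glyceraldehyde 3-phosphate dehydrogenase, was higher on KAR1 (log2 0.58, adjusted p = 0.0126) and 1.49-fold higher on water (log2 0.57, adjusted p = 0.0141). GAPC2 read 12.28 to 12.42 in ga1-3 on KAR1 and 11.45 to 11.97 in wild type on KAR1. AT5G42740 was called higher on water alone (1.58-fold, adjusted p = 0.0436). On KAR1 it had a 1.48-fold difference (adjusted p = 0.0726), and its 2 differences were not compared. The call of AT5G42740 was lost when any of 9 single arrays was left out, with adjusted p up to 0.161, and that of GAPC2 on water without ga1-3 batch B on water (adjusted p = 0.0635).

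Of the oil breakdown list 3 of 17 members were measured. SDP1-LIKE, a relative of the triacylglycerol lipase SDP1 that starts the breakdown of seed oil, was 2.20-fold higher in ga1-3 on KAR1 (log2 1.14, adjusted p = 0.0142) and 2.56-fold higher on water (log2 1.35, adjusted p = 0.00575). Its call on KAR1 was lost without ga1-3 batch C on KAR1 (adjusted p = 0.0510). SDP1 itself averaged 8.77 ± 0.51 in ga1-3 on water (SD, n = 3) and 8.24 ± 0.44 in wild type on water (SD, n = 4), and was not called (adjusted p = 0.150). AIM1, a multifunctional enzyme of beta-oxidation, had a log2 difference of 0.27 on water and was not called (adjusted p = 0.192).

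The glyoxylate cycle was represented by ICL, isocitrate lyase, alone, 1 of 10 members. ICL was among the strong signals, at 13.88 ± 0.09 in ga1-3 on KAR1 (SD, n = 3) and 13.94 ± 0.12 in wild type on KAR1 (SD, n = 4). Its log2 difference was -0.03 on water, with an interval of -0.22 to 0.17 (adjusted p = 0.818), and -0.06 on KAR1 (adjusted p = 0.646). Unlike PPDK, ICL overlapped between the genotypes on both media.

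Storage protein releases amino acids, whose carbon can reach pyruvate, and 6 of 31 members of the amino acid list were measured. None was called higher in ga1-3 in the fit on group means, where 19.7% of all probe sets were on water and 19.3% on KAR1. With the hybridisation cluster as a block ASPGA1 was called higher (log2 0.58 on water and 0.43 on KAR1). IVD, isovaleryl-CoA dehydrogenase of leucine breakdown, was lower in ga1-3 on KAR1 (log2 difference -0.66, adjusted p = 0.00909) and on water (log2 difference -0.76, adjusted p = 0.00439). It read 6.30 to 6.62 in ga1-3 on KAR1 and 6.90 to 7.58 in wild type on KAR1, without overlap. ASPGB1, an asparaginase, was called lower (log2 -1.09 on KAR1, adjusted p = 0.000108, and -0.83 on water, adjusted p = 0.000872), but lay under an intensity of 16 on every array. MCCA and MCCB, the subunits of methylcrotonyl-CoA carboxylase in the same leucine pathway, had log2 differences of -0.03 and -0.18 on water, and the asparaginase ASPGA1 0.19, none of them called without the block. AT4G33150, annotated as lysine-ketoglutarate reductase/saccharopine dehydrogenase of lysine breakdown, was not called between genotypes (log2 -0.64 on water, adjusted p = 0.121).

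**Figure D3:**
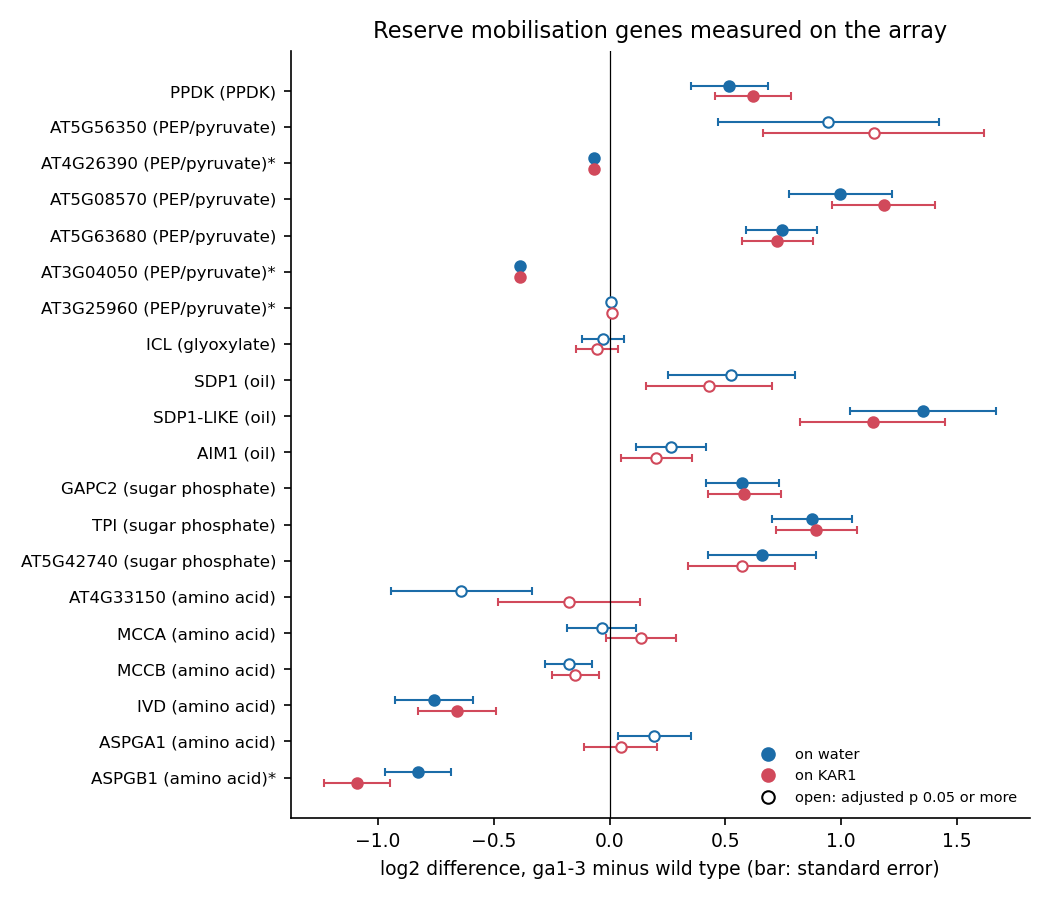
Log2 difference, ga1-3 minus wild type (horizontal axis, bars are standard errors), of the 20 measured reserve mobilisation genes (rows, with their list), on water in blue and on KAR1 in red. Filled points have an adjusted p under 0.05, open points do not, and an asterisk marks genes under an intensity of 16 on every array. PPDK, SDP1-LIKE, TPI and GAPC2 lie to the right of 0 and IVD to the left, while ICL lies at 0.

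The hybridisation cluster touches these calls too. With the cluster as a block 5 of the 20 were called on water (2 higher, 3 lower), where 18.4% of all probe sets were (9.28% higher, 9.14% lower). On KAR1 6 were called (3 higher, 3 lower), where 19.8% of all were (9.4% higher, 10.4% lower). On both media the calls of PPDK, SDP1-LIKE, GAPC2, TPI and IVD were lost, while their differences kept their signs. The call of AT5G42740 on water was lost too (log2 0.26, adjusted p = 0.571). The log2 difference of TPI was then 0.57 on KAR1 (adjusted p = 0.0640) and 0.55 on water (adjusted p = 0.0748), and that of IVD -0.61 on KAR1 (adjusted p = 0.106) and -0.71 on water (adjusted p = 0.0665). SDP1-LIKE had 0.66 on KAR1 and 0.88 on water, and GAPC2 0.43 on KAR1 and 0.42 on water. AT5G08570 was called on KAR1 (log2 0.63, adjusted p = 0.0270) but not on water (log2 0.45, adjusted p = 0.106), and AT5G63680 on both media (adjusted p = 0.0495 on KAR1 and 0.0442 on water). ASPGA1 was called higher with the block (log2 0.58 on water, adjusted p = 0.00629, and 0.43 on KAR1, adjusted p = 0.0243). Of the members not called without the block, AT5G56350, SDP1 and ICL changed sign on both media and AT4G33150 on KAR1. The others kept theirs. AT5G56350 then had log2 differences of -0.26 on water and -0.06 on KAR1, and SDP1 -0.08 and -0.18.

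None of the 20 members was called for KAR1. AT4G33150 was lower on KAR1 than on water in 7 of 7 seed batches, with a mean log2 difference of -0.65, and MCCA was lower in 7 of 7, with -0.21, neither of them called (adjusted p = 1 for both, and 0.0678 and 0.257 with the seed batch as a block). For PPDK the count was 1 lower of 7. The share of all probe sets that were lower in 7 of 7 batches is not given here, so these counts are descriptions.

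The labelled tissue was checked with markers. The annotation names probe sets for 2 of 15 markers of seed storage and late embryogenesis and 4 of 15 of leaf photosynthesis. LEA4-5, a late embryogenesis abundant protein, averaged 12.51 to 12.92 over the 4 groups, and the storage cupin AT1G03890 9.66 to 10.47. LEA4-5 was called lower in ga1-3, with log2 differences of -0.41 on KAR1 (adjusted p = 0.00321) and -0.39 on water (adjusted p = 0.00435). AT1G03890 was not called between genotypes, but was lower on KAR1 than on water in 7 of 7 seed batches (mean log2 difference -0.64, adjusted p = 0.419, and 0.0285 with the seed batch as a block). The share of all probe sets with such a count is not given here. With the hybridisation cluster as a block AT1G03890 was called higher in ga1-3 on water (log2 0.76, adjusted p = 0.00725) but not on KAR1 (adjusted p = 0.0881). LEA4-5 then kept its call on KAR1 (adjusted p = 0.0467) but not on water (adjusted p = 0.0634). RCA, Rubisco activase, averaged 4.88 in ga1-3 on KAR1 and 3.54 in wild type on KAR1, a 2.54-fold difference (adjusted p = 7.65e-05), and LHCB4.3, a photosystem antenna protein, 6.50 and 5.39 (2.16-fold, adjusted p = 0.000824). LHCB4.1, the antenna gene that gives most of the summed signal of these markers, was not called, with log2 differences of -0.05 on KAR1 (adjusted p = 0.910) and 0.45 on water (adjusted p = 0.236). With the cluster as a block LHCB4.1 was called higher in ga1-3 on KAR1 (log2 0.67, adjusted p = 0.00753) and on water (log2 1.17, adjusted p = 0.000323). Without the block, 3 of the 4 photosynthesis markers were called higher in ga1-3 on KAR1, where 19.3% of all probe sets were. On water 2 were, where 19.7% of all probe sets were. LHCB4.2, called on KAR1 alone (log2 0.44, adjusted p = 0.00927), lay under an intensity of 16 on every array. RCA lay under that intensity on every wild type array on KAR1 (3.35 to 3.64, log2), so low signal limits its fold difference there. The summed intensity of the 4 markers was 391.6 to 670.5 in ga1-3 on KAR1 and 390.2 to 470.9 in wild type on KAR1. On water it was 512.5 to 905.0 in ga1-3 and 397.0 to 473.1 in wild type. PPDK also occurs in leaves, and whether these photosynthesis transcripts and PPDK share a source was not tested. No probe set was named for GA1, so the mutated gene could not be used to check the labels, nor for DLK2 and KUF1, markers of the karrikin response, or the endosperm genes EPR1 and EXPA2.

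Genes with a pattern like that of PPDK were ranked by Pearson r over the 14 arrays, among 5826 probe sets with 1 gene and a mean log2 level of 4 or more. AT3G23940 was the most alike (r = 0.97), followed by AT1G76920 (0.97), ENGase85A, an endo-beta-N-acetylglucosaminidase (0.96), AT3G48440 (0.95) and AT1G33970 (0.95). The most opposed were AT2G34315 (r = -0.97), AT5G16660 (-0.97) and AT1G17350 (-0.96). In all, 147 probe sets had an r of 0.9 or more and 92 an r of -0.9 or less, around a median of 0.23. These r values describe arrays that share genotype, seed batches and hybridisation clusters, and the genes were picked for them.

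Much of this likeness lay in wild type batch A. Without its 2 arrays 56 probe sets had an r of 0.9 or more, and the 5 most alike genes kept an r of 0.91 to 0.95. When the 4 group means were taken out first, the most alike were AT4G24100, SEC and TPLATE (r = 0.96 each), AT1G17680 and AT5G35560 (0.95 each). SEC encodes an O-linked N-acetylglucosamine transferase and TPLATE a subunit of an endocytic adaptor complex. Without wild type batch A these r values were 0.89 for AT4G24100, 0.84 for SEC and for TPLATE, 0.79 for AT1G17680 and 0.80 for AT5G35560. Of 53 probe sets with such an r of 0.9 or more, 2 were left at that level without the batch.

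**Figure D4:**
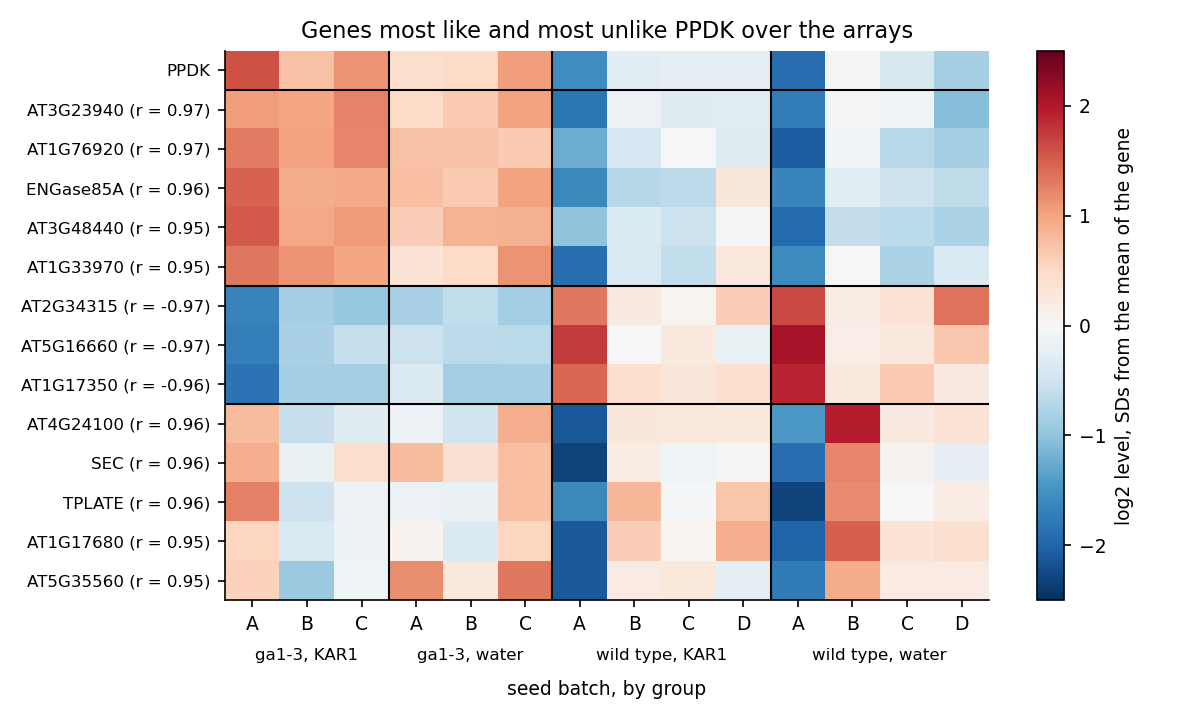
PPDK, the 5 genes most like it, the 3 most opposed and the 5 most like it after removal of group means (rows), over the 14 arrays (columns, by group and seed batch). Colour gives the log2 level in SDs from the mean of the gene, and r beside a name is the one by which it was ranked. The genes most like PPDK are high in all ga1-3 columns and low in wild type batch A, and the lowest block is marked mainly by wild type batch A.

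The nearest 3 loci with a named probe set on each side of PPDK on chromosome 4 lay 1 to 8 genes away. On the lower side, AT4G15520, whose annotated span overlaps that of PPDK in the TAIR10.1 gene table, had log2 differences of -0.21 on KAR1 and -0.27 on water and was not called (adjusted p = 0.319 on KAR1, 0.203 on water). The glucosyltransferase genes UGT84A3 and UGT84A4 had levels of at most 4.14 and 2.14 (log2) and were called lower in ga1-3 on both media, with log2 differences of -0.83 on KAR1 and -0.91 on water for UGT84A3 and -0.05 on each for UGT84A4. On the higher side, AT4G15545 was 1.34-fold higher in ga1-3 on KAR1 (adjusted p = 0.0204) and had a 1.23-fold difference on water (adjusted p = 0.0769), and its call was lost when any of 3 single arrays was left out, with adjusted p up to 0.0817. IAGLU, which conjugates the auxin indole-3-acetic acid to glucose, averaged 8.12 ± 0.45 in ga1-3 on KAR1 (SD, n = 3) and 7.15 ± 0.65 in wild type on KAR1 (SD, n = 4), and was not called, with log2 differences of 0.96 on KAR1 (adjusted p = 0.102) and 0.82 on water (adjusted p = 0.160). With the hybridisation cluster as a block the log2 differences of IAGLU were 0.06 on KAR1 and -0.08 on water. Those of AT4G15545 were 0.61 (adjusted p = 0.0149) and 0.50 (adjusted p = 0.0405). Over the 14 arrays, IAGLU had an r of 0.83 with PPDK and AT4G15545 an r of 0.70. AT4G15590 lay at 2.26 to 2.32 on every array.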

How the data were processed

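RNA from seed was labelled by amplification from the 3' end, with 7 ug of total RNA per sample, and hybridised to single-colour arrays, per the labels' protocols. The authors deposited linear intensities, which they had made with GCRMA per the submitters' processing notes, with a value for each probe set on each array. Its version, and whether all arrays were normalised together, are not given in the sources used here. Scanner values were not used here, so no detection call was made. Arrays carry no read depth, and their number limits the precision.

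Of 22810 probe sets, 64 controls were left out. The annotation pairs 13513 with 1 gene, 503 with several (never named by one of them) and none of the other 8730. Of the first, 13436 matched the RefSeq TAIR10.1 gene table, used for names and neighbours.

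The log2 intensity was fitted with limma 3.58.1 in R 4.3.3 on 4 group means over 14 arrays (eBayes with trend and robust). Two-sided p-values were adjusted by Benjamini-Hochberg over 22746 probe sets and called under 0.05. The fit was run on simulated data with independent noise on each array. That simulation held no seed batches or hybridisation clusters, so it cannot show how the fit behaves with them. Intervals are at 95%. Single values over seed batches had exact permutation tests. Arrays of a group correlated at 0.975 to 0.999 and are not duplicates, since at most 30.5% of probe sets had equal values on any pair. Letters name seed batches, per the labels. Deviations from group means correlated at 0.507 to 0.855 within the 7 batches (11373 probe sets), and ga1-3 B and C correlated slightly more with another batch (0.632 and 0.568) than within their own (0.610 and 0.557). Since the labels tie both arrays of a letter to the same seed, the seed batch was used as a block for KAR1 in a second fit. A letter shared by the genotypes names different seed.

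Named are PPDK, list members called between genotypes (or the 3 largest differences in a list without calls), 13 genes by likeness and the 3 nearest named loci on each side. Members, lists and tests were chosen with earlier results of these data known. AT4G33150, AIM1, SDP1, AT5G56350, AT3G25960, MCCA, MCCB and ASPGA1 were also named after their values were seen, to account for all members. Alternatives were other blocks, scalings, floors, weights, fewer groups and leaving out arrays or seed batches.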

Additional observations from a re-analysis of the deposited data

Results flagged for a closer look

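Of 93 sets of 4 or 7 values looked at for a value far from the others, 15 held one, where chance gives about 1 in 20. In 13 of them it was an array of wild type batch A, and the arrays of a batch share their seed. PPDK on KAR1 read 10.38 (log2) there, against 10.85 in each of the other wild type batches. On KAR1 the same batch read 13.76 for ICL (others 13.99 or more), 6.20 for IAGLU (7.40 to 7.62), 8.26 for AT3G23940 (8.73 to 8.77), 3.60 for AT4G24100 (4.39 to 4.40) and 7.57 for SEC (8.40 to 8.51). It read high for AT1G17350 on KAR1, at 7.66 (others 7.22 to 7.27). On water it read 4.17 for AT5G56350 (others 5.27 to 5.46), 6.08 for IAGLU (7.23 to 7.44) and 3.00 for AT3G48440 (3.80 to 3.93). The other values lie near the bottom of the scale, namely AT3G04050 at 2.54 on KAR1 and on water (others 2.56) and AT4G15590 at 2.26 on KAR1 (others 2.32) in batch A, and AT4G26390 at 2.14 (others lower) and AT3G25960 at 2.32 (others 2.35) in wild type batch C on water. AT3G23940, AT3G48440, AT1G17350, AT4G24100 and SEC were picked for their likeness to PPDK over the same arrays.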

How the results depend on the processing

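The difference of PPDK between ga1-3 and wild type kept its sign in all 32 alternatives on each medium. On water it lay between 0.37 and 0.61 (log2) and 21 kept the call. It was lost with the hybridisation cluster as block (0.47), within the second cluster (0.38), with quantile normalisation (0.40), with only the groups compared (0.52), and in 7 of the fits without 1 array or seed batch, which ran between 0.38 and 0.61. On KAR1 it lay between 0.47 and 0.70 and 30 kept the call, lost with the cluster as block (0.57) and with ga1-3 batch A removed on both media (0.54), where such fits ran between 0.50 and 0.70. In a fit that leaves 1 sample in a group, that sample is assumed to vary like the others. The cause of each loss was not tested. With the letter as replicate block the differences were 0.53 on water (adjusted p = 0.0257) and 0.64 on KAR1 (adjusted p = 0.0115). The exact test over seed batches gave 0.44 with quantile normalisation (p = 0.0571), and 0.44 to 0.64 without 1 batch, where no p under 0.05 is possible.

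No KAR1 effect on PPDK was called in any limma fit. With the seed batch as replicate block the adjusted p was 0.761 in ga1-3 and 0.805 in wild type, and the block changed no call. Without 1 array or batch the effect in wild type ran between -0.062 and 0.19, negative without wild type batch A on water (-0.062), in ga1-3 between 0.06 and 0.25, and the mean between 0.06 and 0.18. The interaction ran between -0.016 and 0.24 in such fits, negative without wild type batch A on KAR1 (-0.015) and with ga1-3 batch A removed on both media (-0.016). The mean change within seed batches ran between 0.068 and 0.15 without 1 batch. Without wild type batch B, the only batch with a negative change, it was 0.15 (exact sign-change test, p = 0.0313). All changes left are then positive, so this is the smallest p possible and follows from the batch dropped. Of the 20 reserve mobilisation genes, 5 and 6 were called on water and KAR1 with the cluster as block, and 1 and 3 within the second cluster, where fewer arrays were fitted. Without 1 array or batch the counts ran between 8 and 14 on water and 7 and 11 on KAR1. Over all probe sets the calls ran between 3892 and 12659 on water and between 4331 and 12925 on KAR1. With a floor of 16, which 12100 probe sets pass, 4206 were called on water and 4416 on KAR1. Low signal limits genes under that floor.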
